A study of Homo sapiens with 8 samples.

Results

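Most positions in a gel-based iCLIP map of polypyrimidine tract binding protein (PTB) had no counterpart in the gel-free GoldCLIP maps of the same protein, and these positions are described here. They were chosen by absence: iCLIP peaks lying within 20 nt of each other on one strand were merged into sites, and a site was kept when it shared no nucleotide on its strand with any GoldCLIP peak. Of 52446 iCLIP sites, 37139 (70.8%, exact 95% interval 70.4 to 71.2) were kept and are called absent sites below. The other 15307 sites shared at least 1 nt with a GoldCLIP peak and are called met sites. Since the overlap itself chose the members, the share of 70.8% describes the choice and is not a finding.

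The GoldCLIP samples came from 293T cells, a human embryonic kidney line, that carried either a Halo-PTB or a Halo-YFP transgene, the tag being a protein that bonds covalently to a ligand on beads. The 8 samples form 4 groups of 2: Halo-PTB irradiated with UVC, Halo-PTB irradiated with UVA, Halo-PTB without UV, and Halo-YFP irradiated with UVC. Each group is represented by 1 list of peaks, so no spread between replicates can be given. The labels used here do not state the promoter of the transgenes, the number of clones or any photoreactive nucleoside. The iCLIP list was derived by the submitters from an earlier study of PTB, whose cells the series text does not name. Differences between the iCLIP list and the GoldCLIP lists therefore cannot be told apart from differences in cells, in tagging or in depth, which is unknown for every list. Absent means only that no peak was listed.

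PTB, also known as PTBP1 or hnRNP I, is an RNA-binding protein that recognises short pyrimidine-rich stretches, in particular runs of U and C. It is best known as a repressor of alternative exons, and it also acts on polyadenylation, on RNA stability and on translation from internal ribosome entry sites. In CLIP assays light links protein to RNA, and reverse transcription often stops at the linked nucleotide. In iCLIP, pile-ups of cDNA ends can be called as peaks. How the peaks of the lists used here were called is not given. UVC links natural bases directly, whereas UVA is commonly used with a photoreactive nucleoside. Positions are in hg19 and are given as chromosome, start and end with the strand. Genes were not assigned to them.

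The lists that took sites out of the absent class were very unequal. Peaks of the UVA list alone among the PTB lists with UV met 10311 iCLIP sites (19.7%), and peaks of the UVC list alone met 1976 (3.77%). Both lists met 2968 sites (5.66%). The controls hardly mattered for membership: 52 sites (0.0991%) met only a control peak, 40 through the list without UV and 12 through the YFP list. The UVA list has 70110 merged sites and the UVC list 80531, against 2341 without UV and 1080 with YFP.

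The absent sites were the narrower and lower-scoring part of the iCLIP list, but they reached into its top. The deposited score is higher for smaller p-values, is limited to 1000, and ranks sites only within one list. The absent sites had a median score of 39 (10th to 90th percentile 15 to 142), against 65 (19 to 240) for the met sites. Their median width was 34 nt (13 to 70), against 54 nt (22 to 129). Scores above 100 were reached by 6740 absent sites (18.1%, interval 17.8 to 18.5) and by 5101 met sites (33.3%, interval 32.6 to 34.1), where 22.6% of all iCLIP sites scored above 100. A score of 200 or more was reached by 1763 absent sites (4.75%) and 2092 met sites (13.7%). Sites up to 30 nt wide made up 42.5% of the absent and 19.5% of the met sites, and sites over 100 nt wide 3.54% and 17.5%. Intervals here and below are exact (Clopper-Pearson) unless stated otherwise. They cover counting error only and treat sites as independent, which neighbouring sites are not.

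The score was also taken within classes of width, and the absent share then fell with the score mainly among the wider sites. A wide site has more nucleotides with which to meet a peak, so width is partly built into the rule. Over all widths 85.8% of the sites with scores up to 16 were absent, against 29.1% between 501 and 999 and 23.9% (27 of 113 sites) at the limit. Among sites up to 30 nt wide it did not fall in this way: it was 86.4% (interval 85.3 to 87.3) at scores up to 16, 82.3% between 31 and 50, 85.1% between 101 and 200, and 84.9% (interval 81.4 to 87.9) between 201 and 500, with 20 of 26 such sites (76.9%, interval 56.4 to 91.03) absent at the limit. Among sites over 75 nt wide it fell from 55.7% between 21 and 30 to 42.0% between 101 and 200, 27.3% between 201 and 500, and 14.04% (41 of 292, interval 10.3 to 18.6) between 501 and 999, and at the limit it was 7.69% (6 of 78, interval 2.88 to 15.99). Sites of 31 to 75 nt lay between, at 85.0% for the lowest scores and 61.0% between 201 and 500. By width alone the absent share fell from 86.9% at up to 20 nt to 47.9% at 76 to 100 nt and 32.9% above 100 nt. Width thus still varied within the class over 75 nt, which had no upper bound. Its fall with the score was not separated from width.

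**Figure D1:**
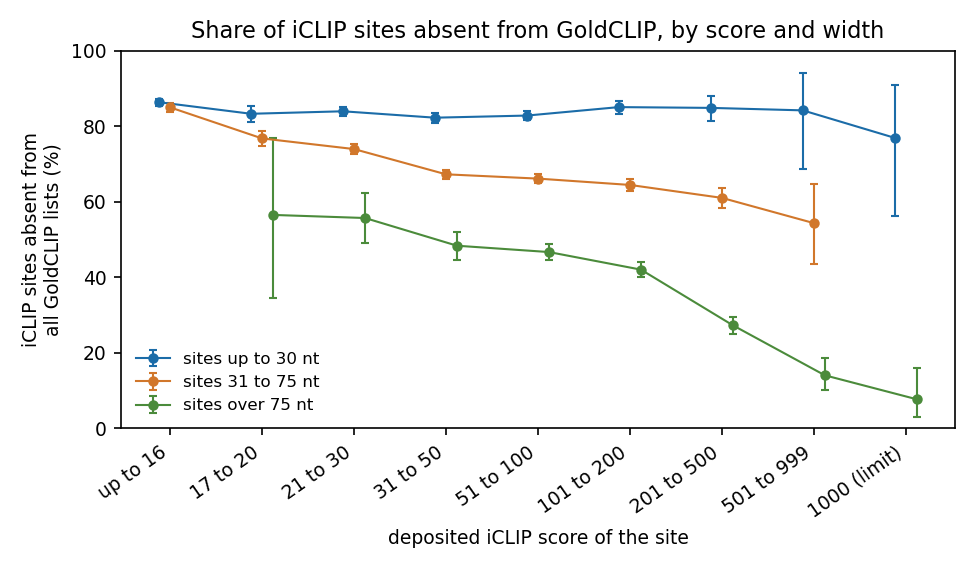
Share of iCLIP sites absent from all GoldCLIP lists (vertical axis, percent) by deposited score (horizontal axis) in 3 classes of width, with exact 95% intervals; groups of under 20 sites are not drawn. Sites up to 30 nt wide stay between 82.3% and 86.4% absent up to a score of 500, whereas sites over 75 nt wide fall to 14.04% between 501 and 999 and 7.69% at the limit.

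The 10 highest-scoring absent sites were all at the limit of 1000 and were ranked by width. The widest of them, chr12:124923598-124923971 on the minus strand (374 nt, 4 merged peaks), lay 1012 nt from the nearest UVC peak and 21556 nt from the nearest UVA peak. On chromosome 5 a pair of such sites stood close together on the minus strand. The first, chr5:145527253-145527495, lay 22 nt from a UVC peak and 101 nt from a UVA peak, and the second, chr5:145527908-145528000, lay 2 nt from a UVC peak and 756 nt from a UVA peak. These 2 sites were therefore absent by a narrow margin and lay within a stretch that GoldCLIP also marked. The site chr22:42335535-42335716 (minus, 182 nt) was similar, with a UVA peak 32 nt away. So was chr7:102287363-102287442 (minus, 80 nt), with a UVA peak 15 nt away. The site chr6:35848023-35848132 (minus, 110 nt) lay farther off, 1637 nt from a UVA and 1789 nt from a UVC peak.

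The remaining 4 of these 10 were at most 50 nt wide. The site chr6:73364815-73364864 (plus, 50 nt) lay 14772 nt from a UVC peak and 45199 nt from the next iCLIP site. The 24-nt sites chr1:171758620-171758643, chr2:232178123-232178146 and chr6:12029614-12029637, all on the plus strand, lay 1426, 17659 and 3995 nt from the nearest UVC peak. Their next iCLIP sites were 199637, 111792 and 970 nt away. The first of these owed its rank to peaks listed with a p-value and a score of 0, which were read as lying at the limit.

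The widest absent sites were composites of several peaks. The widest, chr13:33081879-33082406 on the minus strand, spanned 528 nt, joined 6 peaks and scored 291, and its nearest UVC and UVA peaks lay 543 and 981 nt away. The site chr15:91553879-91554277 (minus, 399 nt) scored 117 and had a UVC peak 208 nt away. The site chr9:139709290-139709682 (plus, 393 nt) scored 428 and had a UVA peak at 230 nt but no UVC peak within 6652 nt. The site chr5:39016392-39016767 (minus, 376 nt) scored 386, with a UVC peak at 392 nt and a UVA peak at 3838 nt. Each of these 4 sites thus had a GoldCLIP peak within 543 nt without touching it, and the fifth by width was the chromosome 12 site described above.

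At the edge of the rule, members and non-members were close in score and width. The 460 absent sites with a GoldCLIP peak 1 to 5 nt away had a median score of 43 and a median width of 31 nt, and the 649 met sites that shared 1 to 5 nt and were only partly covered had 47 and 35 nt. A further 81 met sites sharing 1 to 5 nt were covered completely, with a median width of 4 nt. On the other side, 83 absent sites touched a peak without sharing a nucleotide. Highest in score just inside, after the chromosome 5 site 2 nt from a UVC peak, were chr19:34715866-34715890 (plus, score 797, 4 nt from a UVA peak) and chr4:30827650-30827667 (plus, score 595, 1 nt from a UVC peak). Highest in score among met sites sharing 1 to 5 nt were chr3:169300065-169300069 (minus, score 873), a 5-nt site that a UVC peak covered completely, chr16:24556807-24556941 (plus, 667, 2 nt shared) and chr6:160165671-160165798 (plus, 643, 4 nt shared). The numbers near the edge are small beside the 37139 members.

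Many absent sites lay in the neighbourhood of GoldCLIP peaks on the same strand, though less often than met sites did. The nearest peak of either PTB list with UV was a median of 1016 nt away (quartiles 201 and 3765.5 nt). It lay within 50 nt for 9.62% of absent sites, within 200 nt for 24.9% (interval 24.5 to 25.4), within 1000 nt for 49.8% and within 10000 nt for 88.9%. UVA peaks were the nearer ones at short range: 17.0% of absent sites had a UVA peak within 200 nt and 11.96% a UVC peak. At 10000 nt the order was reversed, at 68.0% for UVA and 78.4% for UVC. The medians were 3533 nt to UVA and 2629 nt to UVC.

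Such neighbours were few on the opposite strand and in the control lists. On the opposite strand 0.240% of absent sites had a UVA or UVC peak within 200 nt and 0.889% within 1000 nt, and 23 sites lay on an opposite-strand peak. Peaks without UV lay within 200 nt of 103 absent sites (0.277%) and YFP peaks within 200 nt of 37 (0.0996%). The control lists are much shorter, so these shares are not on the same footing as those of the PTB lists.

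**Figure D2:**
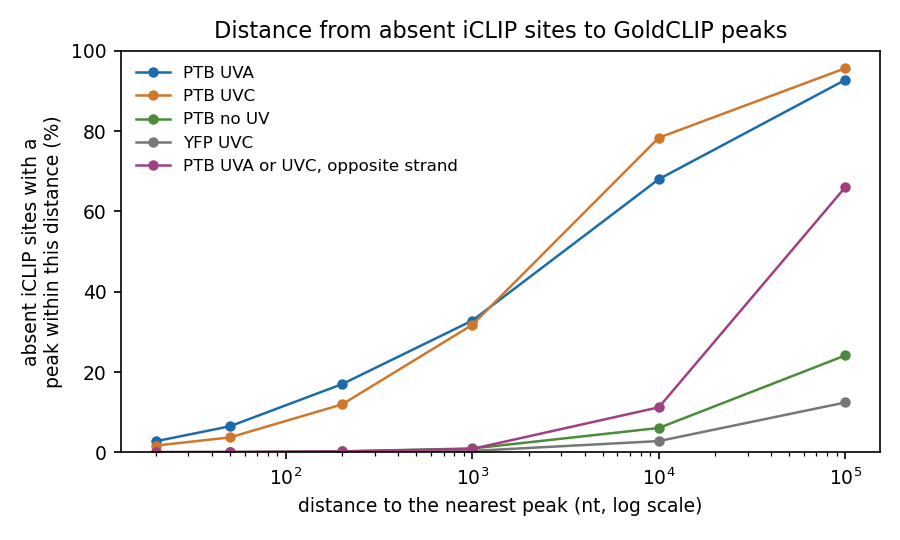
Percent of the 37139 absent sites with a peak of each list within a given distance on the same strand, or on the opposite strand for the UVA and UVC lists together (horizontal axis in nt, log scale). UVA leads UVC at 200 nt (17.0% against 11.96%) and trails it at 10000 nt (68.0% against 78.4%).

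Up to 10000 nt from GoldCLIP peaks, score and width varied little with distance, and the median width stayed between 34 and 37 nt. The median score was 41 for the 1608 absent sites with a UVA or UVC peak within 20 nt, 42 for 51 to 200 nt, 41 for 201 to 1000 nt and 43 for 1001 to 10000 nt. Beyond 10000 nt it was 23 (4115 sites, 11.1% of the absent). The share scoring above 100 was 18.8%, 17.6%, 18.3% and 20.4% in the same bands and 10.7% (interval 9.81 to 11.7) beyond. The far sites also stood apart from other iCLIP sites, with a median of 11590 nt to the next one, against 167 nt for the sites 51 to 200 nt from a GoldCLIP peak. Of the far sites, 442 scored above 100. The 5 ranked highest were all at the limit of 1000 and at most 50 nt wide. They included the chromosome 6 and chromosome 2 sites named above and chr11:84997858-84997880 (minus, 23 nt), chr4:146734910-146734932 (minus, 23 nt) and chrX:17045557-17045579 (plus, 23 nt). Like the chromosome 1 site above, the chromosome 11 site owed its rank to peaks that were read as lying at the limit, not listed there.

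Close GoldCLIP peaks did not lie evenly on both sides of the absent sites. Along the RNA, the nearest UVA peak within 200 nt lay downstream, toward the 3′ end, of 4067 of 6309 absent sites (64.5%, interval 63.3 to 65.6). The share was 65.4% on the plus strand and 63.4% on the minus strand. It was 68.3% within 20 nt and 62.3% from 101 to 200 nt, and it declined to 58.4% from 201 to 500 nt and 53.4% from 501 to 1000 nt. For UVC the same share was 58.5% within 200 nt (2594 of 4436, interval 57.0 to 59.9), with 57.8% on the plus and 59.2% on the minus strand, and 51.6% from 501 to 1000 nt. The direction of the neighbour was not used to choose the sites.

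The downstream excess was not limited to the absent sites, but the counted share was larger there. For met sites the nearest UVA peak that did not overlap them lay downstream in 59.1% within 200 nt, 5.36 percentage points less (normal 95% interval of the difference 3.72 to 6.99). For UVC the met sites were at 55.1% and the difference was 3.36 points (1.24 to 5.48). Met sites had a GoldCLIP peak on them already, so their next peak is not the same kind of neighbour. Control peaks within 200 nt of absent sites were few: 53 of 103 peaks without UV (51.5%, interval 41.4 to 61.4) and 20 of 37 YFP peaks (54.1%, interval 36.9 to 70.5) lay downstream.

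The higher-scoring absent sites showed the downstream position of UVA peaks at every width. Among absent sites scoring above 100 it was 73.4% for widths up to 30 nt (130 of 177), 71.5% for 31 to 75 nt and 71.03% (179 of 252, interval 65.0 to 76.6) above 75 nt. Over all scores these classes were at 62.8%, 64.9% and 69.2%.

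**Figure D3:**
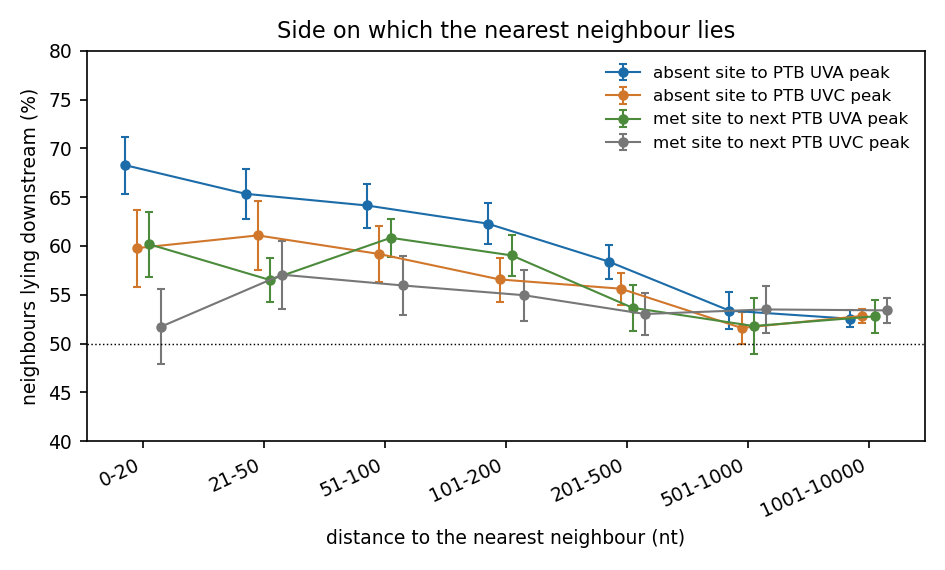
Percent of nearest neighbours that lie downstream along the RNA (vertical axis, from 40% to 80%, dotted line at 50%) by distance to that neighbour (horizontal axis, nt), with exact 95% intervals. Absent sites have a UVA peak downstream in 68.3% of cases within 20 nt and in 53.4% from 501 to 1000 nt, and met sites have their next UVA peak downstream in 60.2% within 20 nt.

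Pairs of neighbouring iCLIP sites restate this order, because a met site has a GoldCLIP peak on it by the rule. In 3481 pairs of adjacent iCLIP sites within 200 nt of each other, 1 site was absent and the other met. The absent site was the upstream one in 2116 pairs (60.8%, interval 59.1 to 62.4). The met site scored higher in 70.9% of pairs and was wider in 71.9%, with medians of 74 against 49 for the score and 60 nt against 38 nt for the width. The absent site lay upstream in 60.07% of the pairs in which the met site scored higher and in 62.7% of the 946 pairs in which the absent site did. The absent site was thus upstream more often whichever site scored higher. Among adjacent iCLIP sites with unequal scores within 200 nt, the higher score lay downstream in 53.8% of these mixed pairs (interval 52.1 to 55.4), in 49.5% of pairs of absent sites (48.2 to 50.8) and in 44.98% of pairs of met sites (42.9 to 47.1).

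Absent sites were mostly single, as were the iCLIP sites as a whole. Another iCLIP site lay within 200 nt of 35.8% of absent sites (interval 35.3 to 36.3). The share was 44.4% for met sites (interval 43.6 to 45.2) and 38.3% for all iCLIP sites. No other iCLIP site lay within 10000 nt of 16.8% of absent, 11.02% of met and 15.1% of all iCLIP sites. When iCLIP sites within 200 nt were joined into clusters, 23848 absent sites (64.2%) formed a cluster of their own. So did 8513 met sites, and 32361 of the 52446 iCLIP sites were single. In clusters where every iCLIP site was absent lay 33012 members (88.9%), and 4127 (11.1%) were in mixed clusters with a met site. The 33012 include the 23848 single sites, which are wholly absent by definition. Of the 13291 absent sites with another iCLIP site within 200 nt, 4127 were in mixed clusters. The absent share was 73.7% among single sites, 65.6% in clusters of 2, 66.02% in clusters of 3 and 68.1% in clusters of 4 or more.

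Some clusters held many absent sites. The one with the most, chr11:65198229-65202330 on the plus strand, held 26 iCLIP sites in 4102 nt, 18 of them absent. That is near the 70.8% absent among all iCLIP sites. Clusters with 10 of 10 sites absent were chr11:63607317-63608650 on the plus strand and chr6:160202986-160204323 on the minus strand, and chr8:41892536-41893691 on the minus strand had 9 of 9. Clusters of 9 absent sites among more were chr2:225396391-225398170 (minus, 11 sites) and chr19:36428618-36429784 (plus, 10 sites). These clusters were picked after their counts had been seen.

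Absent sites were spread over 10794 windows of 100 kb on 1 strand, with 223 (0.600%) in the 10 fullest windows. The minus-strand window chrX:153300001-153400000 held the most, 26 of 33 iCLIP sites, beside 18 UVC and 14 UVA sites. The minus-strand window chr17:500001-600000 followed with 25 of 32, beside 12 UVC and 10 UVA sites. Next, with 23 each, came plus-strand windows that differed in their GoldCLIP sites. The window chr1:39600001-39700000 (26 iCLIP sites) held 24 UVC and 2 UVA sites, while chr11:6500001-6600000 (39 iCLIP sites) held 6 UVC and 33 UVA sites. The window chr12:124200001-124300000 (25 iCLIP sites) held 7 UVC and 18 UVA sites. Each of these 5 windows held sites of both PTB lists with UV, between 2 and 16 met iCLIP sites and no control site.

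In 5537 of the 11613 windows with an iCLIP site every iCLIP site was absent, and these held 13367 members (36.0%). With 70.8% of all iCLIP sites absent, windows holding few iCLIP sites will often be wholly absent. The fullest of the 5537 was the minus-strand window chr6:56600001-56700000, with 19 absent sites beside 11 UVC sites, 1 UVA site and 1 site without UV. The minus-strand window chr18:71900001-72000000 held 18 absent sites beside 1 UVC and 2 UVA sites, and none scored above 45. The plus-strand window chr1:110700001-110800000 held 15 absent sites beside 4 UVC and 15 UVA sites, as many UVA as iCLIP sites with no nucleotide in common. Also with 15 were chr4:106100001-106200000 (plus) and chr8:30700001-30800000 (minus).

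Windows without any UVA or UVC site held few iCLIP sites. They were 1048 of the 11613 windows with an iCLIP site, holding 1461 absent sites (3.93%), and 800 held a single iCLIP site. Only 18 held 5 or more iCLIP sites, 117 in all. The fullest held 10 absent sites each: chr1:32100001-32200000 on the minus strand, chr1:213100001-213200000 on the plus strand and chr22:51100001-51200000 on the plus strand. Their median scores were 38.5, 18 and 58, and their highest 58, 36 and 101. The windows chr12:30900001-31000000 (minus) and chr14:65100001-65200000 (plus) held 8 each and chr5:148600001-148700000 (plus) held 7. No control site lay in these 6 windows. These windows were chosen after their counts had been seen. Across windows with more UVA and UVC sites the absent share fell, from 89.98% with 1 or 2 such sites to 70.6% with 11 to 20 and 49.6% with over 40, as the rule itself implies in part.

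**Figure D4:**
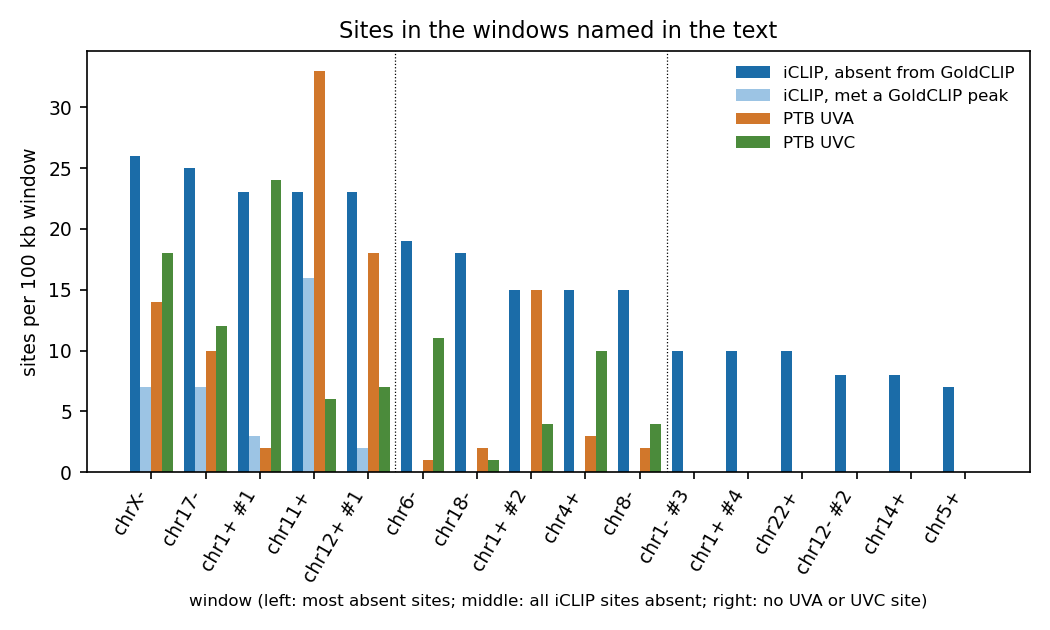
Number of sites (vertical axis) in each named 100 kb window on 1 strand: iCLIP sites absent from GoldCLIP, iCLIP sites that met a GoldCLIP peak, and UVA and UVC sites, with windows in the order of the text and numbered where a chromosome recurs. The window on chromosome X has 26 absent sites, and the 6 windows at the right have no UVA or UVC site.

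The absent share differed between chromosomes. It was lowest on the gene-dense chromosome 19, at 58.6% (1986 of 3390 sites, interval 56.9 to 60.2), followed by chromosomes 17 (63.8%) and 16 (66.3%). It was highest on chromosomes 4 (80.4%, interval 78.7 to 82.1) and 2 (78.2%), followed by chromosomes 13 (76.3%), 8 (76.1%) and 18 (75.8%), and it was 74.98% on chromosome 3 and 74.96% on chromosome 9. Chromosomes 4, 13 and 18 are known as gene-poor, and no measure of gene density was used. Giving each site the absent share of its width class over all chromosomes put chromosome 19 at 68.1%, chromosome 17 at 69.6% and chromosome 4 at 72.9%.

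The absent share moved with the number of GoldCLIP sites per iCLIP site on a chromosome, in opposite directions for the 2 PTB lists with UV. Chromosome 19 had 1.80 UVA and 0.997 UVC sites for each iCLIP site, and chromosome 4 had 1.01 UVA and 1.78 UVC sites. Over 23 chromosomes (1 to 22 and X) the absent share and the UVA sites per iCLIP site had a Pearson's r of -0.878 and a Spearman's rho of -0.834. For UVC they were 0.743 and 0.703. These values describe chromosomes that share the same lists, and the UVA list itself took most sites out of the absent class. The relation to UVA is thus largely built into the rule. UVA and UVC sites together varied little, from 2.63 per iCLIP site on chromosome 16 to 3.16 on chromosome X. A chromosome with many UVC sites per iCLIP site thus tended to have few UVA sites, and the UVC values are not separate from the UVA values.

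**Figure D5:**
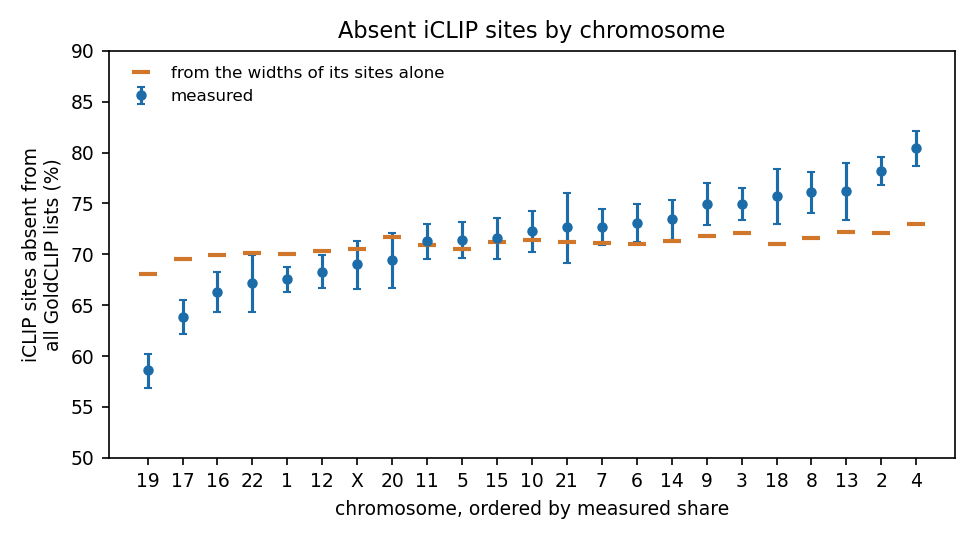
Percent of iCLIP sites absent from all GoldCLIP lists (vertical axis, from 50% to 90%) on chromosomes 1 to 22 and X, with exact 95% intervals, and the share that the widths of its sites alone would give (dashes). Chromosome 19 is lowest at 58.6% and chromosome 4 highest at 80.4%, and the dashes span a narrower range.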

How the data were processed

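The deposited data are 5 peak lists, 1 per GoldCLIP group and 1 for iCLIP, with replicates pooled or merged by the authors. Per the submitters' processing notes, the tool named was Bowtie 1.1.2, a read aligner, and hg19 and dm3 were the builds named; human chromosome names were read as hg19. The peak caller is not given in the sources used here. Deposited values, the score (0 to 1000) and the p-value (at most 0.05), are the authors' own. Peaks listed with a score and a p-value of 0 (104 in iCLIP) were given the limit of 1000, which is an assumption. A p-value of 0 was listed for 8554 iCLIP peaks, whereas 113 merged iCLIP sites lay at the limit. A listed p-value of 0 therefore does not by itself place a peak at the limit. Starts were written 1-based, and a merged site keeps its highest score. Intervals were merged and compared with Python 3.11.15 (numpy 2.4.6, pandas 2.3.3, scipy 1.17.1, matplotlib 3.10.9), tested on simulated data and checked with bedtools 2.31.1, which gave the same 52446 sites and 37139 absent sites. The depth of the libraries is unknown. No test was run, since each group is 1 list.

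The members, windows and measures were chosen with earlier results of these data known. The sites and windows named were the 10 highest-scoring and 5 widest absent sites, the 5 highest-scoring over 10000 nt from a UVA or UVC peak, 3 on each side of the rule's edge, and the 5 windows with the most absent sites. Ties were broken by width, then position. Side, pair and cluster measures, score and width bands, and windows without GoldCLIP sites were added after the data had been seen. Sequence content was not analysed here.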

Additional observations from a re-analysis of the deposited data

How the results depend on the processing

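The absent share of 70.8% became 70.4% with a merging distance of 50 nt, 79.2% when a GoldCLIP peak had to cover at least 50% of the site, 63.9% when a peak within 50 nt counted as shared, 63.1% among iCLIP sites at or above the median score, and 74.8% when only GoldCLIP peaks scoring at least 30 counted. Under 50% coverage the median score was 43, the median width 37 nt, the share with a UVA or UVC peak within 200 nt 32.9%, the share with another iCLIP site within 200 nt 37.0%, and the share on chromosome 19 5.67% in place of 5.35%. Among sites at or above the median score these values were 86, 40 nt, 26.02%, 44.9% and 4.39%. With 50 nt merging the median score was 38 and the shares within 200 nt were 22.97% and 28.3%. With 0 nt merging another iCLIP site lay within 200 nt of 38.99%. These settings changed which sites counted as absent or how they were joined. With 50% coverage required, the absent sites include some that a GoldCLIP peak partly covers. Such sites count as having a peak within 200 nt, so the rise to 32.9% is built into that setting. Further causes were not tested. Ignoring strand, leaving out the control lists, keeping chromosomes 1 to 22 and X, and leaving out peaks listed with a score and p-value of 0, a setting added after the data had been seen, moved no value they were run on beyond its 95% interval. The share of absent sites with the nearest UVA peak within 200 nt downstream ranged from 62.7% to 68.6% over all settings, and that for UVC from 57.9% to 59.4%. Alternatives for pyrimidine content and PTB motifs were not run. No paired analysis was possible because each group is 1 pooled list without replicate columns, and leaving out a replicate was not possible for the same reason.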

Other observations

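Absent and met sites at the score limit had different shapes. Of the 27 absent sites at 1000, 20 were up to 30 nt wide, and 12 were 20 to 24 nt wide. Of the 86 met sites at 1000, 6 were up to 30 nt wide, none was 20 to 24 nt wide, and the median width was 161.5 nt, against 23 nt for the absent sites. Of the 20 narrow absent sites, 12 were built from more than 1 listed interval, and 17 had no other iCLIP site within 1000 nt. Of all 27, 20 lay over 1000 nt from a UVA or UVC peak, and 6 owed the limit to peaks listed with a score and a p-value of 0. The contrast in width is partly built into the rule, since a wide site meets a peak more easily. Of all sites up to 30 nt wide at the limit, 20 of 26 (76.9%) were absent, against 84.9% of those scoring 201 to 500. This contrast was chosen after its values had been seen.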
